A study of Mus musculus with 20 samples.

Results

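Cytokine genes of innate inflammation, with a protease, an inhibitor and a pair of receptors that act beside them, were read in hippocampal RNA of mice given immune checkpoint inhibitors, a melanoma, or both. The 10 genes are Il1a, Il1b, Il18, Il33, Tnf, Tgfb1, Casp1, Nfkbia, Tlr2 and Tlr4, out of 49671 genes in the count tables. They were taken by name as cytokine, inflammasome and Toll-like receptor genes, and all 10 were found. No value of these data enters the rule that lists them, but the list was drawn up with earlier results of the series known. Il1b and Tnf lay near the floor of the measurement. Il1a had fewer than 10 counts in 12 of 20 libraries and Tlr2 in 1, and the lowest count of Tlr4 was 10.

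Bulk RNA sequencing was done on 1 frozen hippocampus from each of 20 adult male wild-type mice, 10 to 12 weeks old. The control group received isotype antibody and had no tumour. The ICI group, for immune checkpoint inhibition, had no tumour and received anti-CTLA-4 (1 mg, given 3 times a week) and anti-PD-1 (200 µg, given 2 times a week). Both proteins are brakes on T cells, and blocking them is a treatment for cancer. Mice of the melanoma group bore D4M-3A.UV2 tumours, a syngeneic mouse melanoma line, from intradermal injection of 500000 cells on both sides with 1 week of engraftment, and received isotype antibody. The melanoma plus ICI group carried the same tumours and received both inhibitors for 3 weeks. Tissue was taken 72 hours after the last injection. Each group held 5 mice, and each mouse gave 1 library. The tumours grew in the skin, away from the tissue measured. In bulk RNA, fewer cells of a type and less RNA per cell cannot be told apart.

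Interleukin-1 alpha, interleukin-1 beta, interleukin-18 and interleukin-33 belong to the interleukin-1 family, and several of them are made as precursors or kept in the nucleus until release. Caspase-1, the protease of the inflammasome, cuts the precursors of interleukin-1 beta and interleukin-18. Toll-like receptors 2 and 4 sense microbial lipoproteins and lipopolysaccharide, and their signal, like that of interleukin-1 and of tumour necrosis factor, frees the transcription factor NF-kB from its inhibitor IkB-alpha. Nfkbia encodes that inhibitor and is itself a target of NF-kB, so its mRNA is often read as a gauge of the pathway, although glucocorticoids also raise it in many cells. In brain, interleukin-33 is held in nuclei of oligodendrocytes and astrocytes, and Tlr2, Tlr4, Tgfb1 and the interleukin-1 genes are expressed mainly by microglia, border macrophages and vessels.

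The deposited coordinates of 9 of the 10 genes have the same start and end in GENCODE M21 on mouse build GRCm38, and those of Nfkbia differ from it. Il1a (chr2:129299610-129309972) and Il1b (chr2:129364570-129371139) lie near each other on the minus strand, and Il18 (chr9:50554827-50581840) and Casp1 (chr9:5298517-5307265) lie far apart on the plus strand of one chromosome. Il33 (chr19:29925114-29960718), Tgfb1 (chr7:25687002-25705077) and Tlr4 (chr4:66827584-66930284) are on plus strands. Tnf (chr17:35199381-35202007), Nfkbia (chr12:55489411-55492647) and Tlr2 (chr3:83836272-83841767) are on minus strands. A gene's count covers its exons.

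Promoters are shown for the 3 genes that had any comparison at an unadjusted p under 0.05. Each holds a match to the kappaB motif that NF-kB binds. No relation between the motif and the differences in expression was tested. Windows of 250 bases before to 50 bases after the RefSeq start (mouse build GRCm38.p6) were searched on both strands for kappaB, for the AP-1 motif TGANTCA, for the cAMP response element TGACGTCA and for the glucocorticoid response element (GNACA and TGTNC with 3 bases between). A window was found for 9 of the 10 genes. Capitals mark the kappaB matches, and the strand of the gene is shown 5′ to 3′, up to 30 bases past the deposited start.
Nfkbia, chr12:55492618-55492897, minus strand: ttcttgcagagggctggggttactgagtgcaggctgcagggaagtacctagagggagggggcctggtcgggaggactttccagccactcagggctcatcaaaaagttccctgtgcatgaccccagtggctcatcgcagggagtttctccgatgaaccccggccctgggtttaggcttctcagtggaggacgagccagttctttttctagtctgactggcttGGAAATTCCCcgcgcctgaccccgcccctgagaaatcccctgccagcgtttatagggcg
Tgfb1, chr7:25686752-25687031, plus strand: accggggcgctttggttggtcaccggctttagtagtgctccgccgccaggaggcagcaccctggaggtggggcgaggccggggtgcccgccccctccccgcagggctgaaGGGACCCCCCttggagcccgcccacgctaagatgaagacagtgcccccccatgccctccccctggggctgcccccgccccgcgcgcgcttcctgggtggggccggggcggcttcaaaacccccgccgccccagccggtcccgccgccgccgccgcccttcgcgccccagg
Tlr2, chr3:83841738-83841858, minus strand: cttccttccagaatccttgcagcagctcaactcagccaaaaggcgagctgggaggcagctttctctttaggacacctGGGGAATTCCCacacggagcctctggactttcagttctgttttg
In Nfkbia the match GGAAATTCCC runs from position -29 to -20 relative to the start, and in Tgfb1 GGGACCCCCC runs from -140 to -131. The capitals in Tlr2 are a pair of overlapping matches that begin at -173 and -172 from the RefSeq start, and a further match, GGGACATCCC, spans that start and is not printed. Of 32851 RefSeq promoter windows, 8.46% hold a kappaB match, so a match is not rare. Il1a holds 1 AP-1 match, TGACTCA, from -12 to -6, against 7.81% of all windows. No match to any of the 4 motifs was found in the windows of Il1b, Il18, Il33, Tnf or Casp1. These letters describe the windows, sites outside them were not searched, and binding was not measured here.

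Libraries held 21990624 to 25735149 counts, and 18427 genes passed the filter on low counts. Markers of dentate gyrus and of field CA1 were present in every library, at summed levels of 99.8 to 838 and 390 to 722 counts per 1000000 (CPM). Striatal markers summed to 209 to 256 CPM in the control and ICI libraries but reached 1510 CPM in the melanoma group and 826 CPM in the melanoma plus ICI group. Control replicate 4 and melanoma plus ICI replicate 1 stood apart in their share of short genes. Genes with under 1000 bases of exon held 3.26% and 2.66% of their counts, against 1.73% to 2.07% in the other 18. Mitochondrial genome genes held 5.099% and 4.276% of their counts, and at most 3.785%, in melanoma replicate 3, of those of the other 18. The cause was not tested. The 12 markers of monocytes and neutrophils all failed the filter and summed to 0.515 to 2.14 CPM over all libraries, and 10 T cell markers summed to 1.29 to 4.56 CPM. The 16 microglial markers summed to 369 to 505 CPM.

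Per kilobase of exon, the 10 genes covered a wide range. Il33 had the highest mean over 20 libraries, 18.9 ± 3.81 (SD) CPM per kilobase, followed by Nfkbia at 14.6 ± 4.95 and Il18 at 14.5 ± 2.15. Il33 lay above Nfkbia in 16 of 20 libraries. Nfkbia and Il18 did not differ beyond their spread, since Nfkbia was the higher of the pair in 8 of 20 libraries. Casp1 and Tgfb1 came next, at 1.13 ± 0.746 and 1.04 ± 0.125 CPM per kilobase, and their order also changed from library to library. Il18 lay above Casp1, and Tgfb1 above Tlr2, in 20 of 20 libraries. The receptors and the classical acute cytokines lay lowest: Tlr2 at 0.352, Il1a at 0.210, Tlr4 at 0.162, Il1b at 0.0903 and Tnf at 0.0358 CPM per kilobase.

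**Figure D1:**
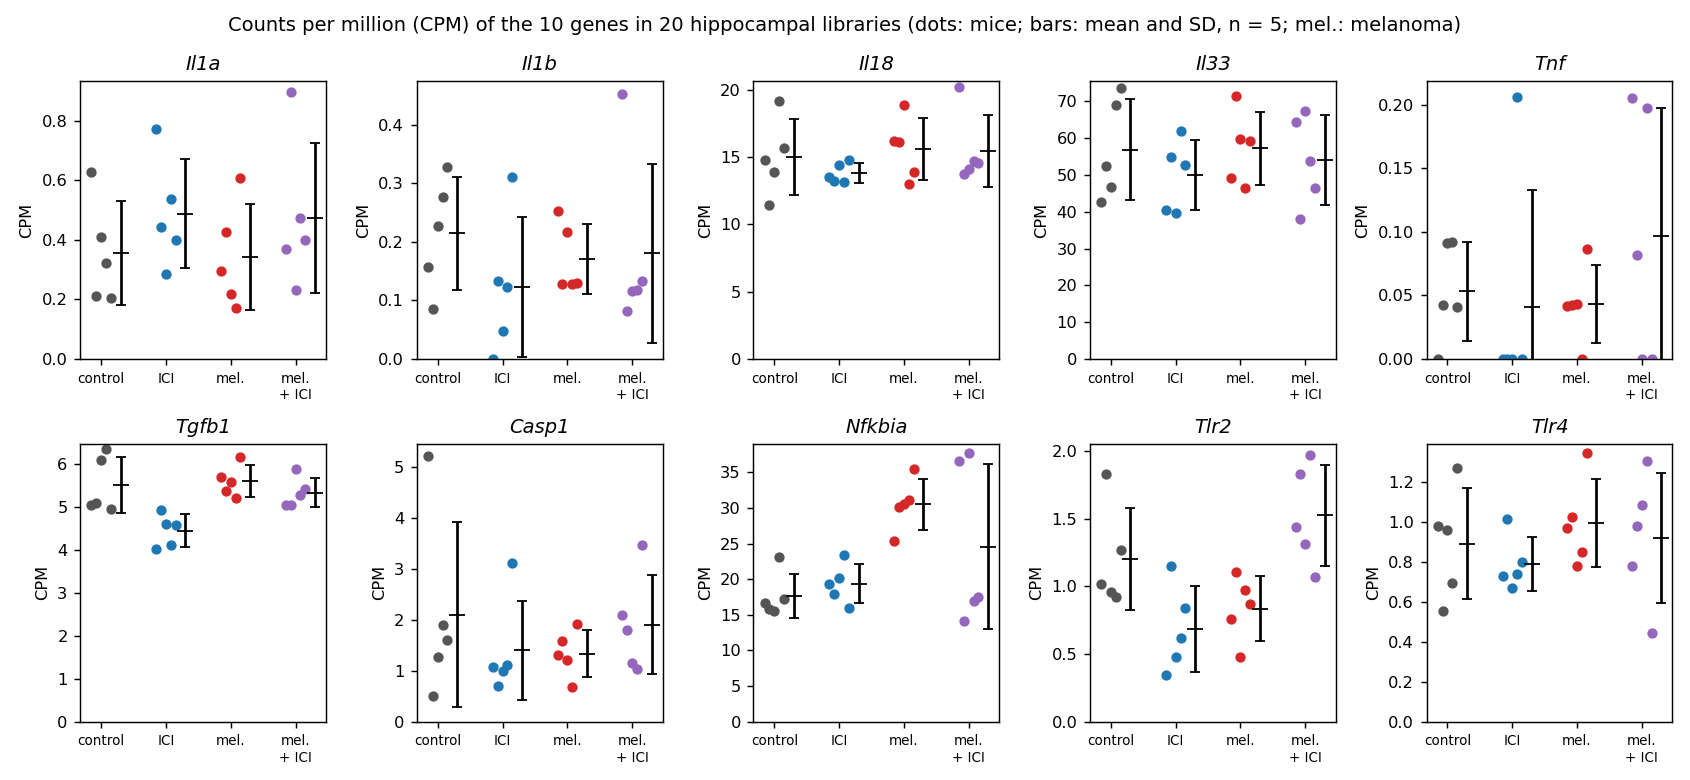
CPM of each gene on the vertical axis (from 0, own scale per gene), by group on the horizontal axis, with 1 dot per mouse and the mean and SD of 5 mice as bars. Tnf and Il1b sit at the floor, Nfkbia is higher in all 5 melanoma mice than in any control, and Tgfb1 is lower in all 5 ICI mice than in any control.

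Tnf, the founding member of its cytokine family, was almost unread. Its raw counts were 0, 1, 2, 2 and 1 in control, 0, 0, 0, 5 and 0 in ICI, 1, 1, 1, 0 and 2 in melanoma, and 5, 2, 0, 5 and 0 in melanoma plus ICI. It was at 0 in 8 libraries and at 3 counts or fewer in 17 of 20. The group sums were 6, 5, 5 and 12 counts, with exact Poisson 95% intervals of 2.20 to 13.1, 1.62 to 11.7, 1.62 to 11.7 and 6.20 to 20.96, which overlap and cover counting error only. With all libraries no difference in Tnf between the groups was detectable at this depth. Without ICI replicate 4, which held all 5 counts of its group, the exact permutation p for ICI against control was 0.0476, not adjusted for the 10 comparisons made of these near-floor genes.

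Il1b, the secreted pyrogenic interleukin-1, was read at 4, 2, 5, 6 and 8 counts in control, 0, 3, 1, 3 and 7 in ICI, 6, 3, 5, 3 and 3 in melanoma, and 11, 2, 3, 3 and 3 in melanoma plus ICI. It was at 3 counts or fewer in 12 of 20 libraries. Its group sums were 25, 14, 20 and 22 counts, with Poisson intervals of 16.2 to 36.9, 7.65 to 23.5, 12.2 to 30.9 and 13.8 to 33.3. Of the 22 counts in melanoma plus ICI, 11 came from replicate 1, which is 1 of the libraries rich in short genes. Neither Il1b nor Tnf passed the filter, so they were compared on CPM by two-sided exact permutation tests, whose smallest possible p is 0.00794. Over 10 such comparisons, the exact p lay between 0.214 and 0.976 for Il1b and between 0.365 and 0.841 for Tnf. Il1b also overlaps the antisense gene Il1bos over 45 exonic bases, and as strand use in the counting is not stated, reads of both genes may be mixed.

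Il1a, which encodes the membrane-bound and nuclear interleukin-1, passed the filter narrowly. Its counts were 16, 5, 9, 7 and 5 in control, 18, 10, 6, 13 and 9 in ICI, 7, 10, 5, 4 and 14 in melanoma, and 9, 22, 6, 12 and 9 in melanoma plus ICI. It had fewer than 10 counts in 12 libraries and failed the filter at a minimum count of 20, while at a minimum of 5 Il1b passed as well. Every pair of groups overlapped. The fitted log2 fold changes between pairs of groups ran from -0.06 to 0.46, and the 95% intervals were wide, the lowest bound of any pair being 0.516-fold and the highest, in another pair, 2.52-fold. Il1a shares 222 exonic bases with Gm14023 on the opposite strand, a gene with 68.9% as many counts, so its level is uncertain.

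Il18, the interferon-gamma-inducing cytokine cut by caspase-1, was well measured and even. From here on, values set side by side for the 4 groups stand in the order control, ICI, melanoma, and melanoma plus ICI. CPM was 14.98 ± 2.83, 13.8 ± 0.732, 15.6 ± 2.31 and 15.5 ± 2.67 (SD, n = 5 each). The coefficient of variation over all 20 libraries was 14.8%. Log2 fold changes between pairs of groups lay between -0.12 and 0.16, and their 95% intervals lay within 0.762-fold to 1.36-fold. The highest value, 20.2 CPM, was again melanoma plus ICI replicate 1, and the other 4 mice of that group lay between 13.8 and 14.7 CPM.

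Il33, the nuclear alarmin, was the gene with the most counts, 835 to 1797 per library. CPM was 56.9 ± 13.8, 49.99 ± 9.63, 57.3 ± 9.92 and 54 ± 12.3. The groups overlapped throughout, and log2 fold changes between pairs of groups ran from -0.19 to 0.11 with 95% intervals within 0.677-fold to 1.40-fold. Its spread was large for its depth: the variance over libraries was 55.0 times that of counting alone, and 7.41% of it lay between groups, against a median of 14.8% over the genes tested. The lowest library, at 38.0 CPM, was a melanoma plus ICI mouse and the highest, at 73.7 CPM, a control mouse.

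Il33 varied with the markers of oligodendrocytes, the cells that form myelin. A score, the mean log2 CPM of 12 oligodendrocyte markers such as Mog and Mag, was correlated with log2 CPM of Il33 over the 20 libraries, with Pearson's r = 0.912 and Spearman's rho = 0.928. Both permutation p-values were 1e-05, the smallest that 100000 resamples can give, and the adjusted p was 0.0012 over 120 gene and marker pairs. Without the 2 libraries farthest from the median score r was 0.898, after removal of the group means it was 0.918, and r was positive in each of the 4 groups. A gap in the score set 3 low libraries apart from 17, and among those 17 r was 0.882. Summed oligodendrocyte markers ranged from 2980 to 8680 CPM in control, 3270 to 7670 in ICI, 6560 to 8930 in melanoma and 3050 to 8450 in melanoma plus ICI. The 3 genes whose log2 CPM was most like that of Il33 over 20 libraries were Gatm (r = 0.974), Gjb1 (0.940) and Sept4 (0.938), out of 15475 genes compared. Gjb1, the connexin 32 gene, is itself on the oligodendrocyte list. These correlations describe libraries that share dissection and depth.

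**Figure D2:**
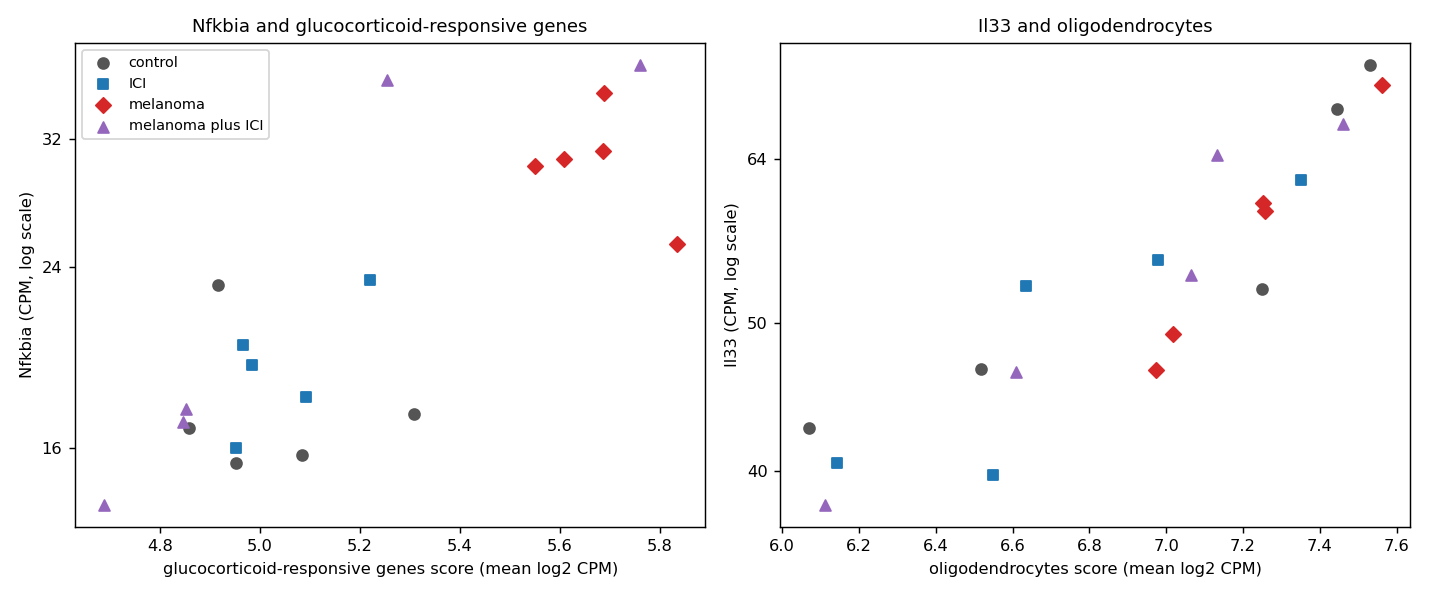
Marker score (mean log2 CPM of the list, horizontal) against CPM of the gene (vertical, log scale), with 1 point per mouse and a shape and colour per group. Il33 is higher where the oligodendrocyte score is higher within every group, and for Nfkbia 6 libraries with glucocorticoid-responsive scores of 5.55 to 5.83, 5 of them melanoma, lie apart from the other 14.

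Tgfb1, the gene of transforming growth factor beta 1, an anti-inflammatory cytokine that keeps microglia in their resting identity, lay lower in all 5 ICI mice without a tumour than in any control, a difference that did not pass the adjusted test. CPM was 5.06, 5.10, 6.11, 6.37 and 4.97 in control and 4.03, 4.94, 4.62, 4.12 and 4.58 in ICI. The groups did not overlap, though the highest ICI mouse and the lowest control mouse were close. Melanoma stood at 5.72, 5.38, 5.59, 5.22 and 6.16 CPM, and melanoma plus ICI at 5.05, 5.05, 5.88, 5.29 and 5.43 CPM. All 10 tumour-bearing mice therefore lay above all 5 ICI mice without a tumour.

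The ICI mean of Tgfb1 was 0.808-fold that of control, a log2 fold change of -0.31 (SE 0.10, 95% interval -0.52 to -0.09). edgeR's unadjusted p was 0.008 and its adjusted p 0.766. The estimate was -0.26 without control replicate 4. Tgfb1 and Tlr2 were the 2 of 8 genes with an unadjusted p under 0.05 in this comparison, against 5.23% of all genes, and Tgfb1 alone did not overlap, against 0.885%. Against ICI, the log2 fold change of melanoma plus ICI was 0.26 (unadjusted p = 0.0211, edgeR adjusted p = 0.563), and the groups did not overlap. Its unadjusted edgeR p stayed under 0.05 in 18 of 20 fits that left out 1 library, and was 0.0578 without ICI replicate 1. In that comparison 8.63% of all genes had an unadjusted p under 0.05 and 1.45% did not overlap. The ICI effect averaged over tumour status was -0.19 (unadjusted p = 0.0179, edgeR adjusted p = 1, 2.19% of all genes under 0.05). The difference of the ICI effects with and without a tumour was 0.24 (unadjusted p = 0.124, edgeR adjusted p = 0.512), and thus not shown. Tgfb1 had the smallest coefficient of variation of the 10 genes, 12.0%, and 55.7% of its variance lay between groups.

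Endothelial markers lay lower in the same ICI libraries, with overlap, summing to 221 to 276 CPM against 269 to 331 in control, 263 to 322 in melanoma and 272 to 393 in melanoma plus ICI. Markers of red blood cells summed to 1.5 to 18.2 CPM in ICI, 11.1 to 46.7 in control, 10.4 to 42.3 in melanoma and 9.12 to 39.8 in melanoma plus ICI. Their score gave r = 0.568 with Tgfb1 (adjusted permutation p = 0.115) and rho = 0.344 (0.413), and r was 0.275 once group means were removed. Tgfb1 and the endothelial score gave r = 0.538 over 20 libraries, with an adjusted permutation p of 0.143, and 0.146 once group means were removed. The 16 microglial markers summed to 369 to 416 CPM in ICI and 385 to 505 in control. Their part in the Tgfb1 difference was not tested.

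Nfkbia, the NF-kB inhibitor gene, lay higher in all 5 melanoma mice than in any control, a difference that did not pass the adjusted test. CPM was 16.7, 15.8, 15.5, 23.1 and 17.3 in control and 25.3, 30.1, 30.6, 31.1 and 35.5 in melanoma. The groups did not overlap: the lowest melanoma mouse lay above the highest control mouse, which is control replicate 4. The ICI mice, at 19.3, 17.96, 20.2, 23.4 and 16 CPM, lay in the range of the controls or just above it. The melanoma plus ICI group was split, with replicates 1 and 3 at 36.5 and 37.8 CPM and replicates 2, 4 and 5 at 14.1, 16.98 and 17.5 CPM. Group means were 17.7 ± 3.10, 19.4 ± 2.73, 30.5 ± 3.61 and 24.6 ± 11.6 CPM (SD, n = 5).

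The melanoma mean was 1.73-fold that of control, a log2 fold change of 0.79 (SE 0.23). In edgeR's quasi-likelihood test the unadjusted p was 0.0023, and the Benjamini-Hochberg adjusted p over 18427 genes was 0.656, so the difference did not pass. Of the 8 genes tested, Nfkbia alone had an unadjusted p under 0.05 in this comparison and alone did not overlap, against 5.11% of all genes tested and 1.04% of them. Left out in turn, no library moved the estimate outside 0.72 to 0.90. Without control replicate 4 and melanoma plus ICI replicate 1 together it was 0.90. Averaged over both antibody treatments, the melanoma effect on Nfkbia was 0.57 on the log2 scale (unadjusted p = 0.00198, edgeR adjusted p = 0.94), where 4.34% of all genes had an unadjusted p under 0.05. For melanoma plus ICI against control the log2 fold change was 0.48 (unadjusted p = 0.0468, edgeR adjusted p = 1, 2.38% of all genes under 0.05). It was 0.40 without control replicate 4 and melanoma plus ICI replicate 1 together. It was 0.28 without melanoma plus ICI replicate 1 alone, 0.27 without melanoma plus ICI replicate 3, and 0.15 in limma voom with quality weights. The unadjusted p stayed under 0.05 in 4 of 20 fits that left out 1 library. For melanoma plus ICI against melanoma it was -0.31 (unadjusted p = 0.178, edgeR adjusted p = 0.825), and -0.73 in limma voom with quality weights (limma adjusted p = 0.0603).

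The 12 genes of the glucocorticoid-responsive list, among them Fkbp5, Sgk1 and Tsc22d3, stood at scores of 5.02 ± 0.180, 5.04 ± 0.114, 5.67 ± 0.107 and 5.08 ± 0.434. Replicates 1 and 3 of the melanoma plus ICI group, which had high Nfkbia, scored 5.25 and 5.76, and replicates 2, 4 and 5 scored 4.69, 4.85 and 4.85. The libraries fell into 2 sets on this score, 6 at 5.55 and above and 14 at 5.31 and below, so no correlation over all 20 is given. Within the 14, r with Nfkbia was 0.549 (permutation p = 0.0403) and rho was 0.495 (permutation p = 0.0754), and within the 6, r was -0.137 (exact permutation p = 0.817) and rho was 0.143 (exact permutation p = 0.803). The 14 include melanoma plus ICI replicate 1, rich in short genes, with Nfkbia at 36.5 CPM. The next highest of the 14, ICI replicate 4, was at 23.4 CPM, and r without melanoma plus ICI replicate 1 is not given. The genes ranked most like Nfkbia were Mat2a, a methionine adenosyltransferase gene, and 2 genes of that list, Sgk1 and Tsc22d3. Once group means were removed, their r with Nfkbia was 0.896, 0.853 and 0.877, which describes these libraries only. Removing group means leaves the split inside melanoma plus ICI in place. SDs in that group were 11.6 CPM for Nfkbia, 32.5 for Mat2a, 91.8 for Sgk1 and 37.3 for Tsc22d3. In the other groups they were at most 3.61, 15.2, 26.5 and 13.5 CPM. The weight of melanoma plus ICI in these r values was not tested. With the score of the whole list, r of Nfkbia was positive in 2 of the 4 groups. Sgk1, a kinase gene, was at 65.9 ± 18.2 CPM in control and 177 ± 26.4 CPM in melanoma. Striatal scores were 5.27, 3.07, 6.58, 3.11 and 5.76 in melanoma replicates 1 to 5, and 2.84 to 3.60 in control. They were 3.26, 3.45, 5.46, 3.67 and 3.42 in melanoma plus ICI replicates 1 to 5. Over 20 libraries Nfkbia gave r = 0.533 and rho = 0.209 with the striatal score (adjusted permutation p = 0.139 and 0.635), and r = 0.569 and rho = 0.541 with the oligodendrocyte score (0.115 and 0.172). The part of these lists in the Nfkbia difference was not tested.

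Tlr2, the receptor for bacterial lipoproteins, had estimates of opposite sign for ICI with and without a tumour. CPM was 1.02, 1.83, 0.957, 0.923 and 1.27 in control and 0.343, 1.15, 0.476, 0.618 and 0.844 in ICI. It was 0.757, 1.11, 0.477, 0.976 and 0.868 in melanoma and 1.44, 1.83, 1.32, 1.97 and 1.07 in melanoma plus ICI. The groups overlapped in every pair, though all 5 melanoma plus ICI mice lay above 4 of the 5 ICI mice. Raw counts behind these values were small, 8 to 50 per library. Group means were 1.20 ± 0.377, 0.686 ± 0.318, 0.837 ± 0.240 and 1.53 ± 0.373 CPM (SD, n = 5).

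Without a tumour, ICI went with a log2 fold change of -0.80 in Tlr2 (SE 0.31, unadjusted p = 0.0162, edgeR adjusted p = 0.766). With a tumour it went with 0.86 (unadjusted p = 0.00879, edgeR adjusted p = 0.825), where 5.50% of all genes had an unadjusted p under 0.05. Melanoma plus ICI was 2.22-fold above ICI, a log2 fold change of 1.15 (SE 0.30, unadjusted p = 0.00116, edgeR adjusted p = 0.563). The difference between the ICI effects, which is the interaction, was 1.67 on the log2 scale (SE 0.43, 95% interval 0.78 to 2.56), with an unadjusted p of 0.00089 and an edgeR adjusted p of 0.326. That is the smallest adjusted p of the 64 pairs of gene and comparison, and it did not pass. In the interaction 10.3% of all genes had an unadjusted p under 0.05, and Tlr2 was 1 of 8 here. The interaction stayed between 1.47 and 1.93 with each library left out. The estimate without a tumour was -0.61, with an unadjusted p of 0.0633, once control replicate 2 was left out.

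Choroid plexus and meningeal markers varied widely between libraries. Choroid plexus markers summed to 38.8 to 6460 CPM in control, 24.3 to 2290 in ICI, 47.7 to 3780 in melanoma and 71.4 to 6840 in melanoma plus ICI. Over 20 libraries Tlr2 and the choroid plexus score gave r = 0.526, with an adjusted permutation p of 0.16, and 0.511 once group means were removed, with r positive in each of the 4 groups. Meningeal markers summed to 93.1 to 362 CPM in control, 75.7 to 257 in ICI, 87.7 to 300 in melanoma and 135 to 497 in melanoma plus ICI, and their score gave r = 0.439 with Tlr2 (adjusted permutation p = 0.258) and 0.088 once group means were removed. The 8 markers of border-associated macrophages summed to 5.3 to 14.4 CPM in control, 3.48 to 9.91 in ICI, 7.69 to 18.1 in melanoma and 8.14 to 13.5 in melanoma plus ICI, and their score gave r = 0.314 with Tlr2 (adjusted permutation p = 0.41). The red blood cell score gave r = 0.467 with Tlr2 (adjusted permutation p = 0.212), and -0.115 without the 2 libraries farthest from its median, and the endothelial score gave r = 0.385 (adjusted permutation p = 0.334). Their part in the Tlr2 differences was not tested. The genes most like Tlr2 were Rhoq (r = 0.783), Slc39a12 (0.775) and Lsr (0.767), with r of 0.535, 0.658 and 0.452 once group means were removed. Lsr was at 5.94 ± 0.840, 3.83 ± 0.449, 4.51 ± 0.181 and 5.88 ± 0.518 CPM.

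Tlr4, the lipopolysaccharide receptor, had an interaction of 0.07 on the log2 scale (95% interval -0.72 to 0.85), and -0.11 in limma voom. CPM was 0.891 ± 0.279, 0.791 ± 0.134, 0.993 ± 0.219 and 0.918 ± 0.325, from 10 to 33 counts per library. Log2 fold changes between pairs of groups lay between -0.17 and 0.22, and the 95% intervals reached 0.599-fold and 1.72-fold. Its variance was 1.65 times that of counting alone.

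Casp1, the inflammasome protease, varied most among the genes above the floor, with a coefficient of variation of 66.3%. Its CPM was 5.21, 0.510, 1.28, 1.89 and 1.60 in control and 1.07, 0.706, 1.00, 1.11 and 3.11 in ICI. It was 1.30, 1.58, 1.21, 0.679 and 1.91 in melanoma and 2.09, 1.79, 1.161, 1.03 and 3.47 in melanoma plus ICI. Single libraries, control replicate 1, ICI replicate 5 and melanoma plus ICI replicate 5, stood above the rest of their groups. Group differences followed them: melanoma against control was -0.66 on the log2 scale (unadjusted p = 0.208, edgeR adjusted p = 0.877) and 0.01 without control replicate 1. ICI against control was -0.59 (edgeR unadjusted p = 0.256), 0.08 without control replicate 1 and -1.11 (unadjusted p = 0.0396) without ICI replicate 5. The interaction was 1.10 (edgeR unadjusted p = 0.14), and 1.62 (unadjusted p = 0.0276) without ICI replicate 5. How the counting treated reads shared with related caspase genes is not stated. The genes most like Casp1 were Cbln1 (r = 0.844), Kcnip3 (0.831) and Klhdc8a (0.830), the first a cerebellin gene.

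**Figure D3:**
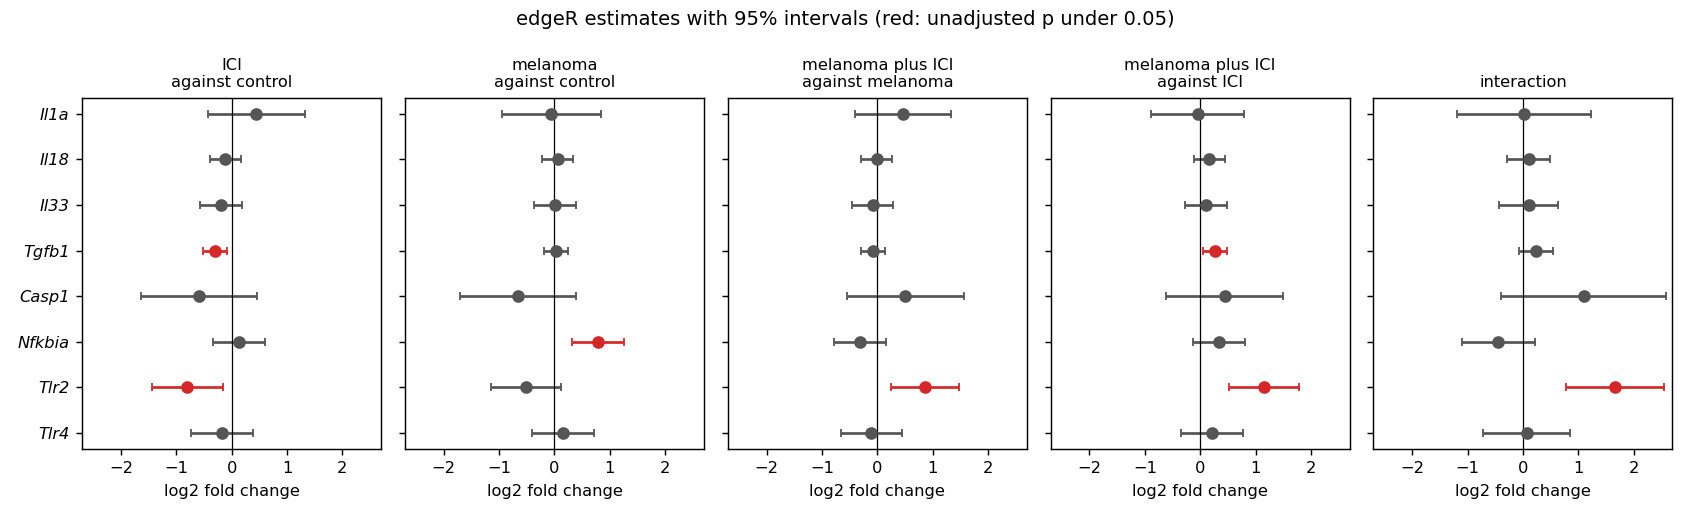
Log2 fold changes (horizontal) of the 8 tested genes (rows) in 4 comparisons of groups and in the interaction, with 95% intervals from edgeR and red where the unadjusted p is under 0.05. Tgfb1 and Tlr2 are red below 0 for ICI against control, Nfkbia is red above 0 for melanoma against control, and the intervals of Il1a and Casp1 are the widest.

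Over all 8 contrasts, 0 of the 8 tested genes passed an adjusted p of 0.05 in edgeR, where 0% of all genes passed. At an unadjusted p under 0.05 there were 10 of 64 pairs of gene and contrast, 15.6%, all from Tgfb1, Nfkbia and Tlr2, where 2.19% to 10.3% of all genes were under 0.05 in a contrast. The contrasts share groups, so these 10 are not separate observations. DESeq2, limma voom and the other alternatives also called none of the 8. The median log2 fold change of the 8 was -0.18 for ICI against control, beside -0.01 over all genes tested, and 0.24 for melanoma plus ICI against ICI, beside 0.03. No gene of the 8 separated melanoma plus ICI from control or from melanoma without overlap, where 0.304% and 1.54% of all genes did. In the other comparisons of groups the median lay between -0.04 and 0.05.

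Scores could be made for 15 of 17 marker lists. Of the 120 pairs of gene and score, 2 passed on both r and rho, Il33 with oligodendrocytes and, over all libraries, Nfkbia with the glucocorticoid-responsive list, whose libraries form the 2 sets described above. Among the pairs that did not pass, Il33 with immediate early genes gave r = 0.605 and Il33 with endothelium 0.583, each at an adjusted permutation p of 0.115. Nfkbia with immediate early genes gave 0.594, Il18 with choroid plexus -0.578 and Il1a with oligodendrocytes -0.577, at the same adjusted p. With the microglial score, r over the 8 genes ran from -0.35 for Tlr4 to 0.36 for Il18. Among the genes themselves, the highest r was that of Il33 with Nfkbia, 0.512. The likest genes for the other 4 were Zfp444 (0.865) for Il18, Gm15417 (0.732) for Tgfb1, Sema3g (0.692) for Tlr4 and Lmbr1 (0.797) for Il1a.

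**Figure D4:**
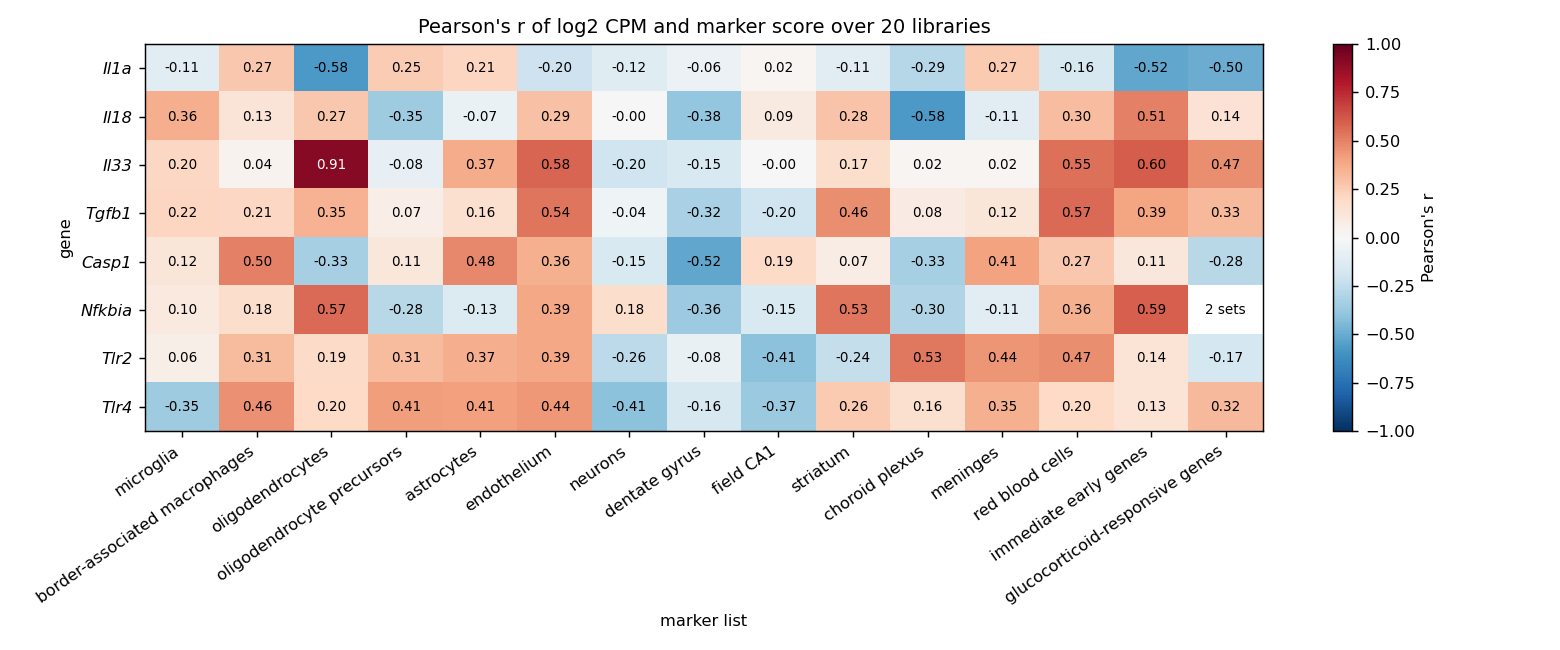
Pearson's r over 20 libraries between log2 CPM of each of the 8 genes (rows) and the score of each of 15 marker lists (columns), coloured from -1 to 1. Il33 with oligodendrocytes, at 0.91, is the strongest, the microglial column is weak throughout, and the cell marked 2 sets has no value because those libraries form separate sets.

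The pathways around these genes were read through 9 lists, of which 126 genes were tested. None passed an adjusted p of 0.05 in edgeR in any contrast. At an unadjusted p under 0.05 there were 3 higher and 9 lower for ICI against control (9.52% of 126), 6 higher and 3 lower for melanoma against control (7.14%), 5 higher and 0 lower for melanoma plus ICI against control (3.97%), 3 and 3 for melanoma plus ICI against melanoma (4.76%), and 16 higher and 4 lower where melanoma plus ICI was compared with ICI (15.9%). For the averaged effects there were 1 higher and 2 lower for ICI (2.38%) and 12 higher and 2 lower for melanoma (11.1%), and for the interaction 10 higher and 6 lower (12.7%). The shares of all genes tested, in the same order, were 5.23%, 5.11%, 2.38%, 5.50% and 8.63%, then 2.19% and 4.34%, and 10.3% for the interaction. The contrasts share groups, several of the shares lie near those of all genes, and no test of these differences was made. The genes of a list are not independent of each other. These lists were also drawn up with earlier results known.

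Among ligands and decoys of the interleukin-1 family, 1 of 7 genes in the tables was tested. This was Il18bp, the soluble trap for interleukin-18, at 8.37 ± 1.67, 10.1 ± 1.30, 10.4 ± 1.56 and 8.47 ± 1.63 CPM, with an interaction of -0.56 (unadjusted p = 0.0225, edgeR adjusted p = 0.484). Il1rn, the receptor antagonist, had 3 counts in all 20 libraries together. Of 7 tested receptors of the family, Il1rl2, the interleukin-36 receptor, was at 0.491 ± 0.139 CPM in control and 0.799 ± 0.0976, 0.864 ± 0.263 and 0.899 ± 0.278 in the other groups. Its log2 fold change for melanoma plus ICI against control was 0.86 (unadjusted p = 0.00415, edgeR adjusted p = 1). Il1rap, the shared co-receptor, stood at -0.46 for melanoma plus ICI against ICI (unadjusted p = 0.0274, edgeR adjusted p = 0.563). Il1rl1, the receptor of interleukin-33, failed the filter with 95 counts in all.

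In the inflammasome list, 15 of 19 genes were tested. Nlrp1b, a sensor that activates caspase-1, was at 0.409 ± 0.112, 0.814 ± 0.186, 0.684 ± 0.251 and 0.623 ± 0.241 CPM, so control was the lowest group. Its log2 fold change for ICI against control was 0.98 (SE 0.31, unadjusted p = 0.00459, edgeR adjusted p = 0.766). For melanoma against control it was 0.73 (unadjusted p = 0.0288, edgeR adjusted p = 0.877), and the interaction was -1.11 (unadjusted p = 0.0171, edgeR adjusted p = 0.484). Txnip, a thioredoxin inhibitor induced by glucose and glucocorticoids, had an averaged melanoma effect of 0.41 (unadjusted p = 0.00533, edgeR adjusted p = 0.94). Casp4, the sensor caspase for lipopolysaccharide, and Nlrc4 were too low to test, with 97 and 143 counts in all. Of the 15 tested, 1 was higher and 1 lower at an unadjusted p under 0.05 for ICI against control, where 5.23% of all genes were.

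In the TNF list, 10 of 11 genes were tested. Tnfrsf1a, the main receptor of tumour necrosis factor, was at 10.3 ± 0.795, 8.22 ± 0.910, 8.70 ± 1.14 and 10.2 ± 1.54 CPM. It was lowest in ICI, as Tlr2 was, with an interaction of 0.56 on the log2 scale (SE 0.16, unadjusted p = 0.00256, edgeR adjusted p = 0.416). Birc3, an inhibitor of apoptosis recruited to that receptor, had an averaged melanoma effect of 0.41 (unadjusted p = 0.0402, edgeR adjusted p = 1). The ligand was thus near the floor while its receptor was read in every library. Mean endothelial scores were 4.32, 4.01, 4.25 and 4.31. Those of meninges were 3.30, 2.66, 3.13 and 3.66, and those of red blood cells 1.56, 0.16, 1.55 and 1.41. Their part in the Tnfrsf1a values was not tested.

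In the TGF-beta list, 22 of 23 genes were tested, and 5 were higher and 2 lower at an unadjusted p under 0.05 for melanoma plus ICI against ICI, where 8.63% of all genes were. Smad6, an inhibitory SMAD, was at 1.85 ± 0.414 CPM in ICI and 3.28 ± 0.787 in melanoma plus ICI, which is 0.82 on the log2 scale (SE 0.21, unadjusted p = 0.000864, edgeR adjusted p = 0.563). Lrrc32, which docks latent TGF-beta on cell surfaces, stood at 0.83 (unadjusted p = 0.00277, edgeR adjusted p = 0.563). The list's median in that comparison was 0.16, beside 0.03 over all genes tested. Both genes are known from endothelium, whose markers summed to 221 to 276 CPM in ICI and 272 to 393 CPM in melanoma plus ICI, and the part of vessel content was not tested.

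Among Toll-like receptors, co-receptors and adaptors, 26 of 28 genes were tested. Myd88, the adaptor shared by most of these receptors and by the interleukin-1 receptor, was at 6.40 ± 0.723 CPM in control and 4.96 ± 1.02 in ICI, a log2 fold change of -0.37 (unadjusted p = 0.00925, edgeR adjusted p = 0.766). Tlr3, the sensor of double-stranded RNA, was at 11 ± 1.39 CPM in control and 8.57 ± 1.28 in melanoma, a log2 fold change of -0.35 (unadjusted p = 0.00983, edgeR adjusted p = 0.813). The median interaction over the 26 was 0.28 on the log2 scale, beside 0.03 over all genes tested, with 19 of 26 above 0, where 52.8% of all genes were. Mean endothelial scores, in the same order of groups, were 4.32, 4.01, 4.25 and 4.31, those of meninges 3.30, 2.66, 3.13 and 3.66, and those of red blood cells 1.56, 0.16, 1.55 and 1.41, and their part in this list's values was not tested. Of cytosolic sensors, 9 of 10 were tested, and Nod2, a sensor of peptidoglycan, had an averaged melanoma effect of 0.91 (unadjusted p = 0.00881, edgeR adjusted p = 0.978) at under 1 CPM in every group mean. Cgas, the sensor of cytosolic DNA, had an interaction of -0.61 (unadjusted p = 0.0482, edgeR adjusted p = 0.484).

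All 22 genes of NF-kB subunits, kinases and inhibitors were tested. In melanoma against control 2 of the 22, Cyld and Tnfaip3, were higher and 0 lower at an unadjusted p under 0.05, beside 5.11% of all genes, with a list median of 0.05 where Nfkbia stood at 0.79. Tnfaip3, the A20 deubiquitinase and, like Nfkbia, a feedback inhibitor that NF-kB induces, was at 6.02 ± 1.54, 8.52 ± 1.30, 7.95 ± 0.801 and 8.23 ± 1.88 CPM. Its log2 fold change for ICI against control was 0.50 (unadjusted p = 0.00853, edgeR adjusted p = 0.766), where that of Nfkbia was 0.13. Tnip2, which binds A20, stood at -0.49 for melanoma plus ICI against ICI (unadjusted p = 0.00492, edgeR adjusted p = 0.563).

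Of 36 NF-kB-inducible cytokines, chemokines and effectors, 14 were tested. Vcam1, the vascular adhesion molecule, was at 31.5 ± 2.94, 23.4 ± 4.35, 25.3 ± 4.82 and 40.3 ± 11.7 CPM. Its log2 fold change for melanoma plus ICI against ICI was 0.78 (SE 0.17, unadjusted p = 0.000205, edgeR adjusted p = 0.563), and 0.61 without control replicate 4 and melanoma plus ICI replicate 1. Endothelial markers summed to 221 to 276 CPM in ICI and 272 to 393 CPM in melanoma plus ICI, and their part in the Vcam1 values was not tested. DESeq2 called Vcam1 in that comparison (adjusted p = 0.0312) and in the interaction (log2 1.10, adjusted p = 0.0192). Lcn2, the acute-phase lipocalin, had an averaged melanoma effect of 3.49 on the log2 scale (unadjusted p = 0.000208, edgeR adjusted p = 0.94, DESeq2 adjusted p = 0.00694), and 2.96 without control replicate 4 and melanoma plus ICI replicate 1. Its group means were 0.182, 0.0597, 1.31 and 1.17 CPM, and in the tumour-bearing groups their SDs, 1.29 and 1.52, were as large as the means. The 22 untested genes of this list had 0 to 116 counts in all 20 libraries together. Cxcl10 had the most, 116, then Ccl3 with 88, Ccl12 with 75 and Cxcl1 with 71, and Il6 had 20, Ccl2 22, Ifng 6, Il10 1 and Ifnb1 0.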

How the data were processed

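Raw counts per gene were analysed from 20 libraries, 5 mice in each of 4 groups named in the sample titles. Per the file headers, the deposited counts give gene coordinates, strand and length. Per the submitters' processing notes, STAR 2.5.2b and DESeq2 1.16.1 were used by the authors. The counting program, strand use, treatment of multi-mapped reads and genome build are not given in the sources used here. Of 49671 gene identifiers, 45214 have the same start and end in GENCODE M21 (GRCm38). Symbols were taken from a reference list of gene names. The 345 identifiers without a symbol held 0.0702% of counts.

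Tests used edgeR 4.0.16 in R 4.3.3: filterByExpr (minimum count 10, minimum total 15; 18427 genes), TMM factors (0.9555 to 1.043), and a robust quasi-likelihood fit to all libraries with 1 mean per group, for 8 contrasts. P-values were adjusted by Benjamini-Hochberg over all genes, at 0.05. CPM (counts per 1000000) is relative to the TMM-scaled total, and log2 CPM used a prior count of 2. Poisson intervals are exact. Il1b and Tnf, which failed the filter, were compared by exact permutation (252 splits). Marker scores are means of log2 CPM, correlated with 100000 permutations. Within groups, no pair of libraries agreed within sampling noise (chi-square per gene 10.48 to 120.24). P-values measure the spread between mice.

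The genes named are the 10 listed, up to 2 of each of 9 pathway lists with the smallest p where none passed (1 list had 1 tested gene), and the 3 genes most like each listed gene among those of at least 1 CPM. Other genes were named after their values were seen. The 10 genes, the lists and the tests were chosen with earlier results of these data known. Alternatives were DESeq2 1.42.0, limma 3.58.1 voom with quality weights, RLE size factors, no filter, 2 groups only, a replicate block, left-out libraries, and, chosen after seeing the data, the marker relations without the melanoma group.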

Additional observations from a re-analysis of the deposited data

Results flagged for a closer look

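Single libraries that stand far from the other 4 of their group were looked for in 40 sets of 5, the 10 genes in 4 groups, by Dixon's ratio at a critical value of 0.71. Chance alone flags about 1 in 20 sets of normal values, or 2 of 40, and 5 were found. Counts near the floor are not normal, and the 40 sets come from the same 20 libraries. So 5 beside 2 is not a test of an excess. In melanoma plus ICI replicate 1, Il1b was at 0.452 CPM, against 0.133 for the next library, and Il18 was at 20.2 CPM, against 14.7. The Il1b value rests on 11 counts. In ICI replicate 4, Tnf was at 0.206 CPM, or 5 counts, where the other 4 libraries had 0. In ICI replicate 5, Casp1 was at 3.11 CPM, against 1.11 for the next. In control replicate 4, Nfkbia was at 23.1 CPM, against 17.3, and that library is 1 of the pair rich in short genes.

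The estimated effect of ICI on Tlr2 differed in sign with and without a tumour, and so did that of melanoma with and without ICI. Without a tumour, all 5 ICI mice lay below the control mean. With a tumour, all 5 melanoma plus ICI mice lay above the melanoma mean. A comparison with a mean ignores the spread of that group, and single mice overlapped in every pair of groups. How many of all genes meet this rule was not counted, and 10.3% of them had an unadjusted edgeR p under 0.05 in the interaction. The interaction was 1.67 on the log2 scale, with an edgeR adjusted p of 0.326, so the difference did not pass its own test. DESeq2 gave the interaction an adjusted p of 0.0619.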

How the results depend on the processing

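None of the 8 tested genes was called under any alternative in any contrast. Of 64 pairs of gene and contrast, 25 changed sign in at least 1 alternative, 5 of them Casp1, and the 10 with an unadjusted p under 0.05 did not. For Casp1, ICI against control moved from -0.59 to 0.0825 when control replicate 1 was left out (range over left-out libraries -1.11 to 0.0825), and melanoma against control from -0.66 to 0.0125 (range -0.91 to 0.0125). The interaction of Tlr4 was -0.11 in limma voom and -0.0947 to 0.24 over left-out libraries. For 37 of the single-gene and marker results, 928 of 937 values under alternatives kept direction and side of the threshold. Counts over all genes, 0 in edgeR, became 1 (ICI against control), 8 (melanoma against control), 9 (melanoma plus ICI against ICI), 4 (averaged effect of melanoma) and 47 (interaction) with DESeq2, of which 1, 1 and 1 were pathway genes in the last 3. With voom they became 1 (melanoma against control), 25 (melanoma plus ICI against melanoma), 1 (averaged effect of ICI) and 19 (interaction). With only the 2 groups compared, melanoma against control gave 3, and without control replicate 4 and melanoma plus ICI replicate 1 the interaction gave 1. Leaving out each library in turn gave 0 to 3 genes for melanoma against control, 0 to 12 for melanoma plus ICI against melanoma and 0 to 11 for the interaction, the highest of all 3 without melanoma plus ICI replicate 3. The cause was not tested.

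The near-floor comparisons gave 0 to 1 of 10 with an exact p under 0.05 as each library was left out, the 1 being Tnf for ICI against control without ICI replicate 4 (exact p = 0.0476). Relations to marker scores past the threshold numbered 2, and 1 without the melanoma group, where Nfkbia with the glucocorticoid-responsive list no longer passed (adjusted p = 0.084). With the replicate number as a block no call changed, and 0 of the listed genes were called. Same-numbered libraries of different groups deviated together with r from -0.35 to 0.528 (median -0.005 over 30 pairs), and 6 of 20 libraries correlated best with their own number, so the numbers were not taken as pairs. Depth limits Il1b and Tnf most: 12 and 17 of 20 libraries had 3 counts or fewer.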

Other observations

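Melanoma plus ICI replicate 1 carried the highest count of several near-floor inflammatory genes, which were picked after their values were seen. Cxcl1, a neutrophil-attracting chemokine, had 43 counts there and at most 5 in any other library. Sele and Selp, the selectins of activated vessels, had 27 and 15 counts there and at most 4 and 5 elsewhere. The same library had the highest Il1b count, 11, and the highest Il18, 20.2 CPM, while its Tnf count was 5, as in 2 other libraries. Il6 had 0 counts in it. Lcn2 had 82 counts in this library, 68 in melanoma replicate 4, 60 in melanoma replicate 1 and 56 in melanoma plus ICI replicate 3, and at most 14 in each of the rest. Ccl3, a microglial chemokine, was highest in another library, melanoma plus ICI replicate 4, with 18 counts. Genes under 1000 bases of exon also held 2.66% of counts in replicate 1, against 1.88% to 2.02% in the other 4 of its group, and the part of this in the counts above was not tested.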
